A study of Gossypium hirsutum with 6 samples.

Results

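The 4 genes described here, treated by their names as class III peroxidase genes, are cotton pod7 (LOC107936187), pod1 (LOC107945392), POX5 (LOC107914564) and POX10 (LOC107937645). They were taken by name from the RefSeq gene table, through every probe set that the array's annotation pairs with 1 gene. That pairing covers only 697 of the 24132 probe sets on the array. The 4 genes and their 5 probe sets are among the 520 genes paired in this way. POX5 has 2 probe sets and the other genes have 1 each. They had been picked because their drought-minus-control differences were known to be large or opposed, so those differences are given below as a description and carry no test.

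The RNA came from leaves of Bikaneri Nerma, a cultivar of upland cotton (Gossypium hirsutum), and was hybridised to 6 Affymetrix cotton arrays, 3 from control plants and 3 from drought plants. Both arms grew in the field in adjacent plots, 6 plots per arm. Drought plants had no irrigation from peak flowering and were sampled 18 to 19 days later, at a soil moisture of 19.5%, which was 50% of that in the control plots. A movable shelter kept rain off the drought plots. Replicates are labelled as biological, with no plot named, so errors measure the spread between these samples. No array of the 6 held the same values as another. A single leaf marker was among the named genes, the Rubisco activase gene RCA1 (0.60 higher in drought on the log2 scale), and because the values hold no absolute level its presence could not be read as a check of the tissue.

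Class III peroxidases are secreted plant haem enzymes that form large gene families. They use hydrogen peroxide to oxidise phenolic compounds, which cross-links lignin, suberin and wall proteins, and they can also release reactive oxygen species in the cell wall. Some members of the family are thus tied to wall stiffening and others to wall loosening, and the family is widely studied in leaves under water deficit. The substrate of each of the 4 cotton enzymes is not known from the sources used here.

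All values are on the log2 scale, so that 1 unit is a 2-fold difference. The authors had centred each probe set on its median over the 6 arrays. A value of 0 is therefore the middle of that probe set's own 6 values, levels cannot be compared between genes, and the middle pair of values are equal and opposite by construction.

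In drought leaves the pod7, pod1 and POX5 signals were higher and the POX10 signal was lower. The sizes ran from 2.82-fold higher for POX5 on its sense probe set to 7.34-fold lower for POX10. In whole leaf RNA, fewer cells of a type and less RNA per cell cannot be told apart. For all 4 genes the 3 drought arrays lay on one side of the 3 control arrays, which holds for 40.1% of all tested probe sets in the upward and 22.7% in the downward direction. On the sense probe sets all 4 differences were above 2-fold, as were 6.63% of all tested probe sets upward and 8.63% downward. Since the genes were picked on this contrast, nothing is read from these counts.

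pod7 had values of -1.05, -0.99 and -1.12 in control replicates 1, 2 and 3, and of 1.27, 1.57 and 0.99 in drought replicates 1, 2 and 3. The control arrays were close together and the drought arrays spread more widely, with replicate 2 the highest, and the groups did not overlap. The group means were -1.05 ± 0.07 (SD, n = 3) and 1.27 ± 0.29 (SD, n = 3), a difference of 2.32 (SE 0.14) or 5.01-fold. Of 24029 tested probe sets, 274 had a larger positive difference. The spread of pod7 within groups was also wide: 10.6% of all tested probe sets had a larger residual SD than its 0.21.

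pod1 was at -0.82, -0.79 and -0.80 in the control arrays and at 1.02, 0.81 and 0.79 in the drought arrays. Its control values lay almost on top of each other, drought replicate 1 stood above the other two, and the groups did not overlap. The means were -0.80 ± 0.01 (SD, n = 3) in control and 0.87 ± 0.13 (SD, n = 3) in drought. The difference was 1.68 (SE 0.08), or 3.20-fold, and 551 tested probe sets had a larger one. Its residual SD of 0.09 was an ordinary one, exceeded by 63.4% of probe sets.

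POX5 was measured by a probe set of sense design and one of antisense design, 2 views of 1 gene that are not replicates. On the sense probe set the control arrays gave -0.68, -0.73 and -0.80 and the drought arrays 0.91, 0.70 and 0.68. As for pod1, drought replicate 1 was the highest and the groups stood well apart. The means were -0.73 ± 0.06 (SD, n = 3) and 0.76 ± 0.13 (SD, n = 3), a difference of 1.50 (SE 0.08), which 710 tested probe sets exceeded.

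The antisense-design probe set of POX5 gave -0.24, -0.09 and -0.26 in control and 0.92, 0.18 and 0.09 in drought. Here 1 array, drought replicate 1, carried much of the difference, while the other two drought arrays lay just above the control arrays. The difference was 0.59 (SE 0.20), between means of -0.20 ± 0.09 and 0.40 ± 0.46 (SD, n = 3 each), and it was 0.33 without drought replicate 1. Few probe sets were as variable: 0.795% of those tested had a residual SD above its 0.33. The strand that this probe set reads was not shown, so its value is not shown to be that of the POX5 transcript.

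Both POX5 probe sets belong to a sequence cluster of the array that also holds probe sets not paired with POX5. An antisense-design probe set of the cluster paired with LOC107915836, a gene with no older name, gave -0.02 (SE 0.10), with overlapping groups. The other probe set of LOC107915836, which is of sense design and lies outside the cluster, gave 0.79 (SE 0.16). A further probe set of the cluster that is paired with no gene gave 0.94 (SE 0.12). The POX5 values are therefore not shown to come from POX5 alone, and probe sets within the cluster gave unlike values.

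POX10 ran the other way. It was at 1.44, 1.56 and 1.34 in the control arrays and at -1.34, -1.43 and -1.53 in the drought arrays. Both groups were compact and lay far apart, so that no drought array came near a control array. The means were 1.45 ± 0.11 (SD, n = 3) and -1.43 ± 0.10 (SD, n = 3). The difference was -2.88 (SE 0.09), and 604 of the 24029 tested probe sets had a lower one. POX10 thus lay less far out among the decreases than pod7 did among the increases, although its difference was the larger in size.

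**Figure D1:**
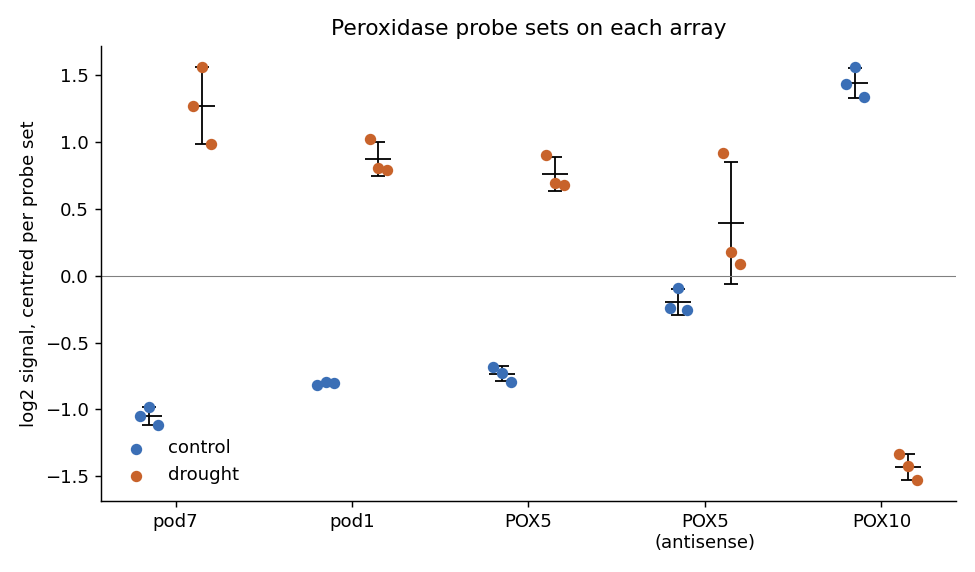
Centred log2 signal of the 5 peroxidase probe sets on each of 3 control (blue) and 3 drought (orange) arrays; black marks are the group mean and SD. Drought arrays lie above control arrays for pod7, pod1 and both POX5 probe sets and below them for POX10, and drought replicate 1 stands alone on the antisense POX5 probe set.

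**Figure D2:**
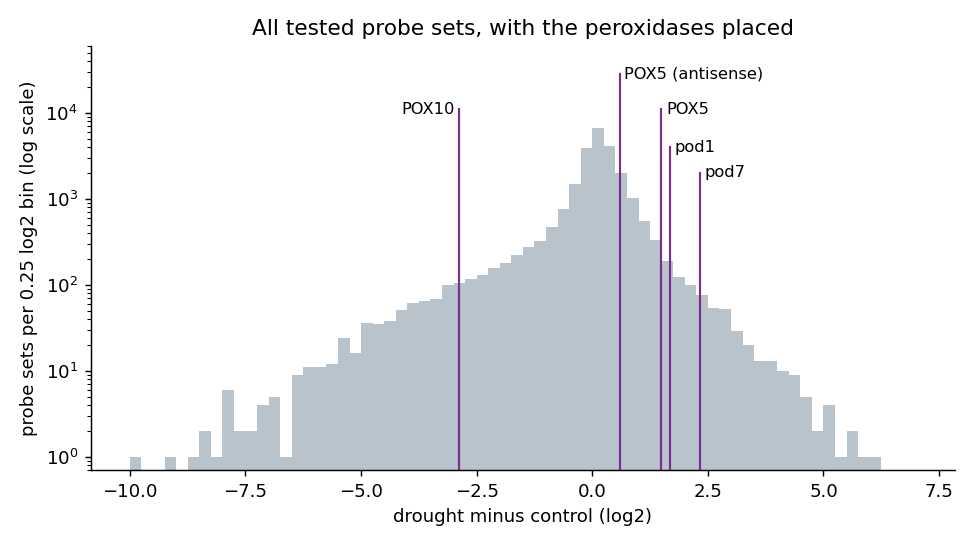
Histogram of the drought-minus-control difference (log2) of 24029 tested probe sets in bins of 0.25, with a log count axis; purple lines mark the peroxidase probe sets, and their heights carry no value. pod7 lies at 2.32 in the right tail and POX10 at -2.88 in the longer left tail.

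The spike-in probe sets, which read controls meant to be added in fixed amounts, were also higher on the drought arrays. The amounts added to these samples were not shown. Their array medians differed by 0.247 for the 27 hybridisation controls and by 0.224 for the 42 poly-A controls, while the median difference over all tested probe sets was 0.12. These offsets are small beside the differences of the sense probe sets of the 4 genes. Once each array was centred on its hybridisation spike-ins, the differences were 2.08 for pod7, 1.43 for pod1, 1.25 for POX5 and -3.12 for POX10. The antisense POX5 probe set, at 0.35 with this centring, moved by the largest share.

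**Figure D3:**
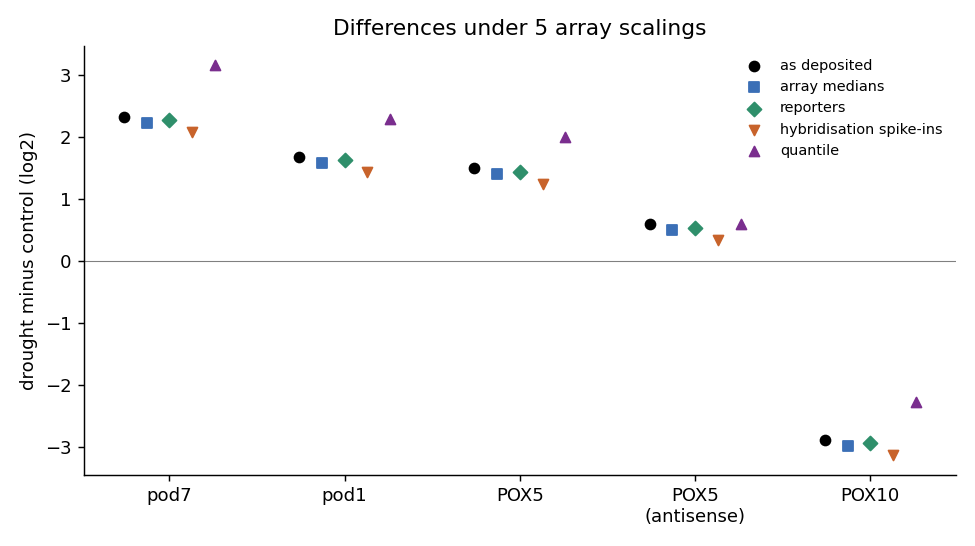
Drought-minus-control difference (log2) of the 5 peroxidase probe sets with values as deposited, with arrays centred on their medians, on 52 reporter or 27 hybridisation spike-in probe sets, and after quantile normalization. Each probe set kept its direction in all of them, and quantile normalization gave the highest values, 3.15 for pod7 and -2.27 for POX10. That normalization was run on values already centred per probe set, so its sizes are not read as better estimates.

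Differences between 2 genes within an array are free of any offset shared by that array. The value of pod7 minus that of POX10 was -2.49, -2.55 and -2.45 in the control arrays and 2.61, 2.99 and 2.51 in the drought arrays. The balance of pod7 to POX10 signal was thus higher by 5.20 (SE 0.15) in drought. The control arrays stood much closer to each other than the drought arrays, of which replicate 2 was the highest. The same shift was 4.56 (SE 0.07) for pod1 against POX10 and 4.37 (SE 0.06) for POX5 against POX10. These sizes follow from the choice of genes with opposed differences.

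Among the genes that were higher, the order of the differences was pod7, pod1 and POX5. pod7 minus pod1 was -0.25 ± 0.06 (SD, n = 3) in control and 0.40 ± 0.31 (SD, n = 3) in drought, and the drought values ran from 0.19 to 0.76. Most of that width came from drought replicate 2, the array in which pod7 was highest and pod1 was not. pod1 and POX5, which lie on different chromosomes of the RefSeq assembly, stayed close to each other on every array. Each probe set was centred on its own median, so this closeness follows largely from their like differences of 1.68 and 1.50. pod1 minus POX5 was -0.13, -0.07 and -0.01 in control and 0.12, 0.11 and 0.11 in drought, a shift of 0.18 (SE 0.04). The drought values of that pair were nearly identical in all 3 arrays, and both probe sets were highest in drought replicate 1. pod7 and POX10, the genes with the most opposed values, lie on the same chromosome with 353 annotated genes between them, so they are not neighbours.

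**Figure D4:**
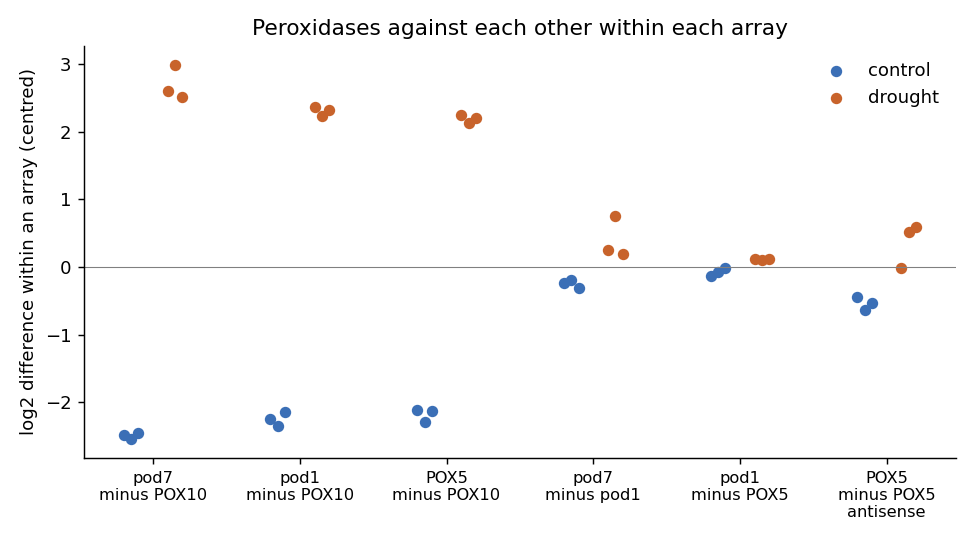
Difference in centred log2 signal between pairs of peroxidase probe sets within each array, control in blue and drought in orange. The 3 pairs with POX10 lie below -2 in control and above 2 in drought, whereas pod1 minus POX5 stays between -0.13 and 0.12.

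Likeness to other genes was measured as the Euclidean distance between the values on the 6 arrays, over the 323 probe sets (322 for POX5) of other genes with an older name. It reflects mainly the size and sign of the drought difference, which also chose the 4 genes, and each distance is given as a description. Nearest to pod7 were the xyloglucan-modifying enzyme gene XTH3 (distance 0.441) and 2 genes for ACC oxidase, the last enzyme of ethylene synthesis, both named ACO1 (0.609 for LOC107905899 and 0.637 for LOC107954048). pod7 had no neighbour as close as those of the other genes on their sense probe sets.

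Nearest to pod1 were the gibberellin receptor gene GID1-2 (0.173), an antisense-design probe set of the transcription factor gene NAC2 (0.188) and POX5 itself (0.247). Nearest to POX5 on its sense probe set were the MAP kinase gene MPK3 (LOC107959059, 0.177), a gene named MYB (LOC107909337, 0.186) and the transcription factor gene RAV (0.206). On the antisense probe set they were the same MPK3 gene on another probe set (0.399), a second gene named MPK3 (LOC107903096, 0.492) and BNLGHi8377 (0.524). The 2 probe sets of that MPK3 gene had unlike drought differences of 1.46 and 0.59, each close in size to that of the POX5 probe set it was nearest to.

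Nearest to POX10 were the acyl-ACP thioesterase gene FatB1 (0.253), the fasciclin-like arabinogalactan protein gene fla-11 (0.270) and E6, an abundant transcript of cotton fibres (0.276). Of 5 fibre-associated genes 4 fell, as the POX10 signal was lower, and 1 rose, where 20.4% of all tested probe sets fell and 35.3% rose at a limma adjusted p of 0.05. The mean of the 5 centred values ran from 1.14 to 1.17 over the control arrays and from -1.30 to -1.08 over the drought arrays. The values were -4.75 for H6L, -3.88 for Ghfe1, -3.07 for E6, -0.65 for FSLTP2 and 0.47 for Fb2, while the other FSLTP2 probe set (-0.20) did not pass. With hybridisation spike-in centring Fb2 was at 0.22 and no longer passed (limma adjusted p = 0.179). Of 5 flower markers, all of them MADS-box transcription factor genes, 2 fell and 3 did not pass. MADS-1 fell by 4.21 (SE 0.14), more than the POX10 difference, and the value of SEPALLATA3 was -1.56 (SE 0.13). The mean of the 5 flower markers ran from 0.47 to 0.68 over the control arrays and from -0.69 to -0.48 over the drought arrays. The part of fibre and flower tissue in the POX10 value was not tested. Of 3 seed storage markers none passed the test in limma, with 0 also at an unadjusted p of 0.05.

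By the same kind of name, 5 other class III peroxidase genes were found among the genes paired with a probe set. Membership of the class rests on names alone, for the 4 chosen genes as well, and was not checked by sequence. Only 246 of the 520 paired genes have an older name, so further members of the family may be on the array unnamed. The 5 genes found were tested in the limma fit over all 24029 probe sets, in which 55.7% passed, 35.3% as higher and 20.4% as lower. Drought leaves had lower signals for 3 of them, POX9, pod5 and pod10, and a higher one for pod3, while pod6 did not pass. The median difference of the 5 was -0.69, against 0.12 over all tested probe sets. Over all 9 genes, the 4 chosen ones included, the median was -0.20 and the range -2.88 to 2.32.

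POX9 fell by 2.02 (SE 0.14, limma adjusted p = 3.31e-06), the largest decrease after that of POX10 among these 9 genes. Its control arrays gave 0.93, 0.98 and 0.80 and its drought arrays -0.80, -1.18 and -1.38. pod5 fell by 1.56 (SE 0.16, limma adjusted p = 4.96e-05), with control values of 0.54, 1.01 and 1.24 that were further apart than its drought values of -0.54, -0.71 and -0.66. The decrease of pod10 was smaller, 0.69 (SE 0.10, limma adjusted p = 0.000387). POX9 and pod10 were read only from antisense-design probe sets, so the strand behind these 2 values is not shown.

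pod3 rose by 0.69 (SE 0.10, limma adjusted p = 0.000444), less than pod7, pod1 or sense POX5, from -0.37, -0.47 and -0.21 in control to 0.51, 0.30 and 0.21 in drought. pod6 differed by -0.20 (SE 0.09, limma adjusted p = 0.109), and its drought replicate 2, at 0.03, lay within the control range of -0.03 to 0.07. It passed as lower, at -0.29, with each array centred on its median (limma adjusted p = 0.0396) and without drought replicate 2 (limma adjusted p = 0.0182). A further 2 genes whose only older names are peroxidase or pox, added after the data had been seen, both fell, by 0.79 (LOC107905931) and 0.83 (LOC107951876). With them, 5 of 7 genes besides the chosen ones were lower and 1 was higher, against 20.4% and 35.3% of all tested probe sets. The chosen genes, picked on this contrast, were left out, so nothing is read from this count.

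**Figure D5:**
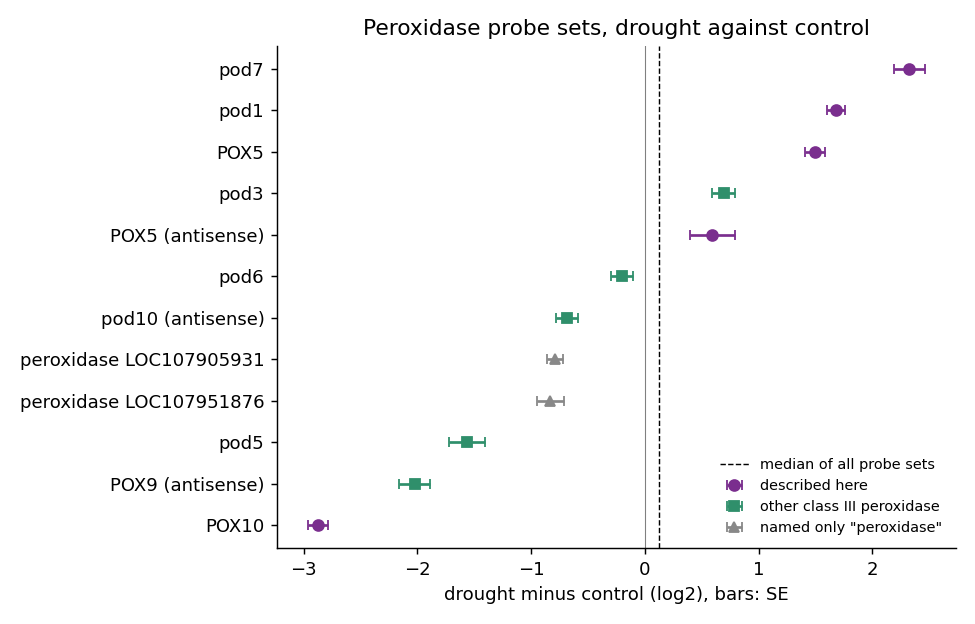
Drought-minus-control difference (log2) with its SE for the peroxidase probe sets, ordered by value; purple marks the 4 chosen genes, green the other class III peroxidases and grey the genes named only peroxidase. The dashed line is the median of all tested probe sets, 0.12, with POX10, POX9 and pod5 furthest to its left and pod7 furthest to its right.

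Peroxidases draw on hydrogen peroxide, and 7 genes for enzymes that make or remove it or superoxide, or recycle the ascorbate used to remove it, were matched by name. In drought leaves 5 of them rose and 2 fell, against 35.3% and 20.4% of all tested probe sets, and their median was 0.26, against 0.12 over all tested probe sets. DHAR1, a dehydroascorbate reductase that recycles ascorbate, fell by 1.81 (SE 0.09, limma adjusted p = 2.99e-07), and Glp1, a germin-like protein gene, fell by 0.84. The increases were small: FeSOD, an iron superoxide dismutase, rose by 0.53, the stromal ascorbate peroxidase gene sAPX by 0.46, the catalase gene CAT2 by 0.44, gAPX by 0.26 and Mn-SOD by 0.24. The 6 genes other than DHAR1 were named after their values had been seen. None of the 5 passed as higher after centring on hybridisation spike-ins, and Mn-SOD was then at -0.00492. Without control replicate 3 or without drought replicate 3 only 3 of the 5 passed, since gAPX and Mn-SOD missed the threshold. The other Mn-SOD probe set gave -0.15 and did not pass, so the 2 probe sets of this gene had opposite signs. It passed as lower in 5 alternative settings, among them centring each array on its median (-0.24, limma adjusted p = 0.00983). CSD2a, a copper/zinc superoxide dismutase gene that was added after the data had been seen, fell by 0.74.

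Wall peroxidases also act on lignin monomers, and the name pattern for enzymes of that pathway matched a single gene, CCR1. It fell by 0.46 (SE 0.10, limma adjusted p = 0.00417), and its short name alone does not settle that it is the cinnamoyl-CoA reductase. CCoAMOT2, whose name points to a caffeoyl-CoA O-methyltransferase and which was added after the data had been seen, fell by 1.15 (SE 0.09).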

How the data were processed

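The authors deposited 1 log2 value per probe set and array, made with RMA, a summary method for Affymetrix arrays, per the submitters' processing notes, which give no version. Each probe set has a median of 0 over the 6 arrays (largest absolute median 5e-07); the sources used here do not say how this centring was done. The log2 scale and the direction, higher for more signal, are taken from RMA.

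Members and lists were chosen with earlier results of these data known. Gene names come from the platform's table and RefSeq (Gossypium_hirsutum_v2.1), and no genome or sequence table was used here. Lists used 1 probe set per gene: sense before antisense design, then the least shared suffix. The rule for naming took the 4 genes, every other class III peroxidase found by name, list genes past the threshold with at least 1 log2 unit (or the largest 2), and the 3 nearest probe sets. The text also names, outside that rule, fibre and peroxide metabolism genes that differed by less than 1 log2 unit. After 103 control probe sets were left out, 24029 were fitted in limma 3.58.1 (lmFit, eBayes; R 4.3.3), without a block, with Benjamini-Hochberg adjustment and a threshold of 0.05. Each SE and adjusted p is from that fit, except that SEs of within-array differences come from the group SDs. The fit was also run on simulated data with independent noise and few changed probe sets. These arrays differ from that setting, so nothing is read from that run here. Precision is limited by 3 arrays per group. Same-numbered arrays deviated together only weakly (correlations 0.0326, 0.0453 and 0.0741). Each of these was still above those of differently numbered arrays, which ran from -0.0536 to 0.00707. The labels do not say that a number marks a shared plot or day, so the numbers were not taken as pairs.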

Additional observations from a re-analysis of the deposited data

Results flagged for a closer look

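Array medians of the control probe sets outside the tests were higher on the drought arrays, with all 3 drought arrays above all 3 control arrays. The median of the hybridisation spike-ins was higher by 0.247 and that of the poly-A spike-ins by 0.224. For the hybridisation spike-ins the groups were only narrowly apart, with drought replicate 3 at 0.0116 and control replicate 2 at -0.0123. The differences of the 4 peroxidase genes kept their direction after centring each array on its hybridisation spike-ins, reporters or median, and after quantile normalization.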

How the results depend on the processing

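The sense probe sets of pod7, pod1, POX5 and POX10 and the antisense one of POX5 kept their direction under all 11 alternatives. Leaving out 1 array could not have reversed any of them, since the groups did not overlap. The replicate block cannot change a difference in this balanced design, so only the scalings could have changed a direction. Quantile normalization gave 3.15, 2.29, 1.99 and -2.27 for pod7, pod1, POX5 (sense) and POX10, and hybridisation spike-in centring gave 2.08, 1.43, 1.25 and -3.12; pod1 was at 1.58 with array median centring. Without 1 array in turn, the values were 2.18 to 2.47 for pod7, 1.60 to 1.72 for pod1, 1.42 to 1.54 and 0.33 to 0.75 for sense and antisense POX5, and -2.93 to -2.82 for POX10. The replicate block left the differences unchanged (2.32 for pod7, with an SE of 0.10 in place of 0.14). Among the genes besides these 4 that the text tests, it changed no other call than that of Mn-SOD (limma adjusted p = 0.0519).

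With hybridisation spike-in centring, 3989 of all tested probe sets were called higher in place of 8485, 1048 were at least 2-fold higher in place of 1593, and 4463 lay wholly above and 8390 wholly below control. That centring turned the share of calls that were higher from 63.4% to 35.5%. Array median and quantile normalization gave 53.1% and 50.9%.

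Of the peroxide metabolism genes, 3 were called higher with array medians, 3 after quantile normalization and 0 with hybridisation spike-in centring, where Mn-SOD turned to -0.00492. Leaving out 1 array gave 3 to 5 of them, with 3 without control replicate 3 or without drought replicate 3. The Mn-SOD probe set used in the list passed in only 1 of its 11 alternatives, without drought replicate 2, and the other Mn-SOD probe set passed as lower in 5. Other class III peroxidases called lower were 3 to 4 when 1 array was left out, 4 without drought replicate 2 and with array median, quantile or hybridisation spike-in scaling, where pod6 passed, and 5 with the 2 genes named only peroxidase. Lignin genes called lower were 2 with CCoAMOT2. Fibre markers called higher were 0 with hybridisation spike-in centring; seed markers called lower were 1 with array medians, 1 with quantile normalization and 1 with that centring. Flower and seed markers called higher were 0 to 1 when 1 array was left out. The causes were not tested. Low signals could not be filtered, since centred values hold no level.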
